A study of Mus musculus with 3 samples.

Results

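Ccl2, Ccl7, Ccl8 and Ccl12 are 4 of the 27998 genes counted in single cells of the mouse meninges, and they were chosen by symbol as the CC chemokines known for attracting monocytes. Their levels were read in the 7057 droplet barcodes that held at least 500 UMIs, less than 8.3% mitochondrial UMIs and a number of genes within the limits that the study set. A UMI is a molecular tag that marks a distinct captured RNA molecule. The cells came from the meninges, the membranes around the brain, of male C57BL/6J mice aged 10 to 12 weeks. HC mice stayed unstressed in the home cage, and CSD mice underwent chronic social defeat for 14 days and were selected as stress-susceptible by behavioural tests. HC replicate 1, HC replicate 2 and CSD replicate 1 were each a pool of 4 mice, loaded in separate lanes of 1 chip. Membranes were taken from the brain surface and from the inner skull and dissociated with collagenase at 37 °C, and live nucleated single cells were sorted before capture. With 1 CSD library, group and lane cannot be told apart. Every p-value below takes its spread from 2 HC libraries. That spread is shared over all genes tested and is not the gene's own HC spread alone.

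CC chemokines are small secreted proteins that direct leukocyte migration through G protein-coupled receptors. Ccl2 is the classical ligand of Ccr2, the receptor that inflammatory monocytes use to leave the bone marrow and enter tissue. Ccl7 binds Ccr2 and other receptors, Ccl12 is a mouse Ccr2 ligand, and mouse Ccl8 also signals through Ccr8. Macrophages and fibroblasts of the brain borders and activated microglia are known sources of such chemokines.

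The 4 genes lay in 1 cluster on chromosome 11 of GRCm38, all on the plus strand and with 3 exons each. Ccl2 (ENSMUSG00000035385) spanned bases 82035571 to 82037453 and Ccl7 (ENSMUSG00000035373) bases 82045712 to 82047525. Ccl12 (ENSMUSG00000035352) followed at 82101845 to 82103400 and Ccl8 (ENSMUSG00000009185) at 82115185 to 82116799. The cluster measured 81229 bases, with gaps of 8258, 54319 and 11784 bases between neighbours. No stretch of 50 bases was shared between the transcripts of any 2 of them, so reads of that length from 1 gene have no exact copy in another. The 250 bases before the start sites of Ccl12 and Ccl8 are shown because these neighbours had different levels in microglia-like cells. They are RefSeq sequences of the plus strand of GRCm38.p6, at chr11:82101595-82101844 for Ccl12 and chr11:82114935-82115184 for Ccl8, with the letters TATAAA in capitals. RefSeq promoters were matched for 2 of the 4 genes, and none is shown for Ccl2 and Ccl7.
Ccl12: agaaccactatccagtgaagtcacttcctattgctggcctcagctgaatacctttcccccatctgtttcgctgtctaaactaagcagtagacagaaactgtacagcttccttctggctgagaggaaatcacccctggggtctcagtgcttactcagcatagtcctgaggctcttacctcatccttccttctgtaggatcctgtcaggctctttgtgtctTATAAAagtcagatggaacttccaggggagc
Ccl8: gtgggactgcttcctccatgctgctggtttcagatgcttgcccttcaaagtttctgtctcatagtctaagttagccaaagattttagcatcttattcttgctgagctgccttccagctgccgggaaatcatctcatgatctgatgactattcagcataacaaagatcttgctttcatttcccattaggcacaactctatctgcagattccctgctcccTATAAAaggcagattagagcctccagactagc
The letters TATAAA began 31 bases before the start site of Ccl12 and 32 bases before that of Ccl8. They occurred on either strand in 12.4% of 32851 promoters of the same length. Neither promoter held the AP-1 letters TGANTCA, which 6.75% of all promoters held on either strand, nor the STAT letters TTCNNNGAA, which 7.02% held. The interferon-type letters GAAANNGAA (7.13% of promoters), the C/EBP letters TTNNGCAAT (1.93%), the PU.1 letters AGAGGAAG (3.67%), the Sp1 letters GGGCGG (32.7%) and the NF-kB motif (7.25%) were not found either.

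HC replicate 1, HC replicate 2 and CSD replicate 1 gave 2599, 1702 and 2756 cells from 9891861, 8814690 and 10206236 UMIs. Median UMIs per cell ranged from 2212 to 2503. Droplets with 100 UMIs or fewer, taken as a measure of cell-free RNA, accounted for 7.87%, 24.1% and 5.48% of each total. Clustering without the 4 chemokine genes gave 18 cell classes, of which 4 clusters kept only a number. The tissue label fitted the fibroblast-like and border macrophage-like cells, but microglia-like and olfactory neuron-like cells were present as well, 2 types that belong to neighbouring tissue. Between 9 and 14 cell barcodes of each library occurred in another library.

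Border macrophage-like cells had the highest mean level of each gene. They numbered 323 and 58 cells in the HC libraries and 128 in the CSD library, or 12.4%, 3.41% and 4.64% of the cells of each library. Levels were expressed as CPM, counts scaled to 1000000 UMIs of the class, with the SD over the 3 libraries. Pooled over libraries, this class held 55.8% of the Ccl2 UMIs in cells, 72.8% of those of Ccl7, 67.8% of Ccl8 and 65.1% of Ccl12, and HC replicate 1 weighed most in these shares. By library, it held 68.8%, 21.1% and 50.6% of the Ccl2 UMIs and 66.8%, 37.2% and 73.2% of the Ccl12 UMIs. In HC replicate 2, microglia-like cells held more of both, with 36.3% and 45.1%. The share of Ccl7 was 74.5%, 49.4% and 76.5%, and that of Ccl8 65.0%, 85.7% and 86.9%. It joined a Lyve1-rich cluster, in which all 8 border macrophage markers were detected, and an MHC class II-rich cluster with 6 of 8, whose leading genes were Ms4a7, Apoe, complement and MHC class II genes.

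Ccl12 was the most abundant of the 4 in border macrophage-like cells, at 1352 and 1099 CPM in the HC libraries and 3092 in CSD. Values of 3 libraries are given in this order throughout, HC replicate 1 first. Its exact Poisson 95% intervals, which cover counting error only, were 1282 to 1426, 949 to 1266 and 2901 to 3292. The CSD library stood above both HC libraries. Microglia-like cells came second at 839, 1104 and 819 CPM. Means over libraries were 1848 ± 1085 in border macrophage-like cells and 920 ± 159 in microglia-like cells (SD, n = 3), so the order of these neighbours was within the spread over libraries. Every other class had a mean of at most 59.5 CPM.

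Ccl2 had the same leading classes. Its level in border macrophage-like cells was 437, 230 and 544 CPM, and in microglia-like cells 162, 328 and 277 CPM. The ranges of the classes overlapped, with means of 404 ± 160 and 256 ± 84.9 (SD, n = 3). Classical dendritic cell (cDC)-like cells followed at 63.1 ± 24.7 CPM, unnamed cluster 16 at 45.6 ± 9.58 and monocyte-like cells at 41.4 ± 8.64. These 3 lay within each other's spread, and no further class exceeded 9.44 CPM.

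Ccl7 and Ccl8 were low in microglia-like cells. Ccl7 was present at 443, 219 and 494 CPM in border macrophage-like cells and at 24.2, 9.51 and 5.42 CPM in microglia-like cells. Fibroblast-like cells came second for Ccl7 with a mean of 33.8 ± 33.6 CPM, from 14, 1 and 5 UMIs, and cDC-like cells next at 29.7 ± 27.6 (SD, n = 3). Ccl8 was at 304, 34.5 and 168 CPM in border macrophage-like cells. The second library rested on 6 Ccl8 UMIs. No other class reached a mean above 11.4 CPM for Ccl8, and in microglia-like cells it was counted 5, 0 and 0 times.

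**Figure D1:**
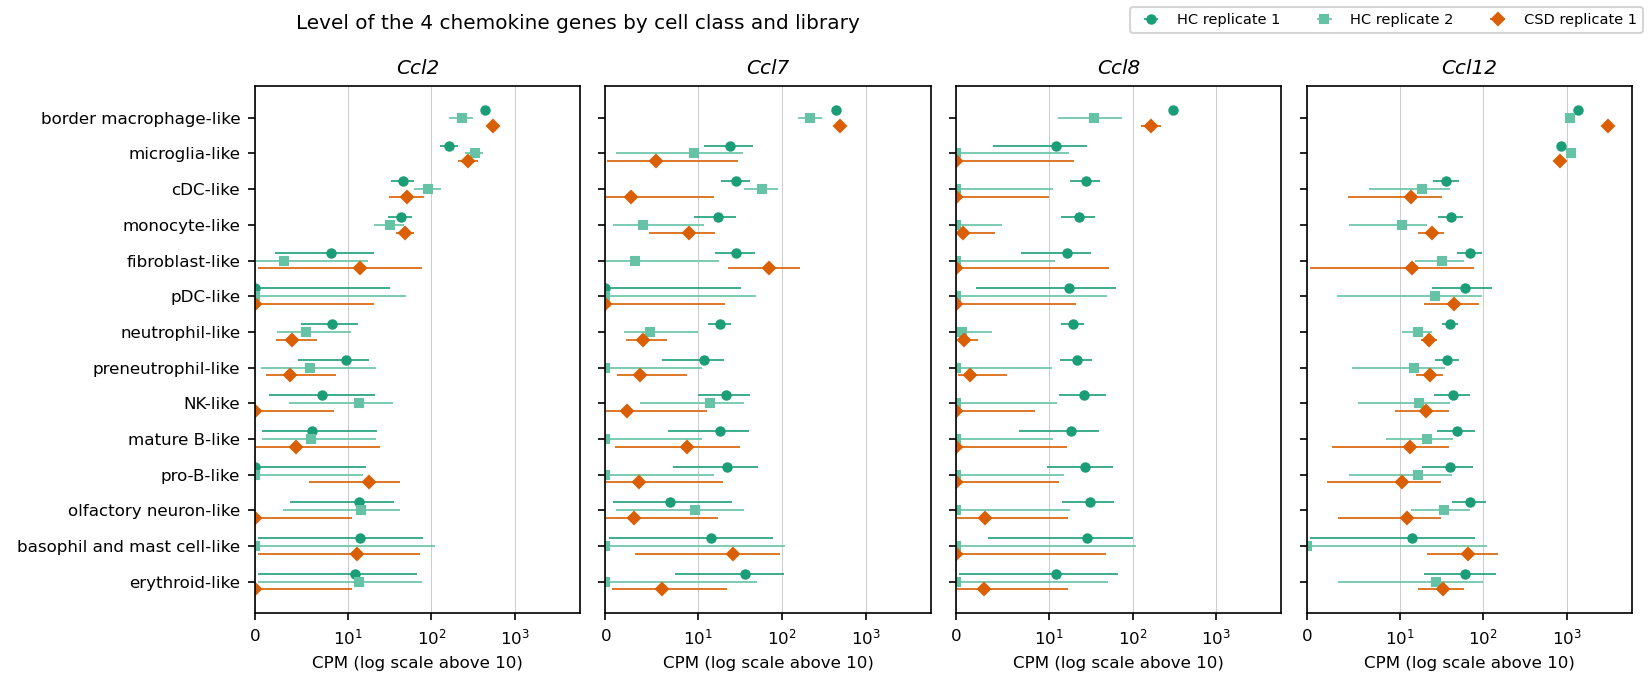
Level of each chemokine gene (CPM of the class) in each named cell class, on an axis that is linear up to 10 and logarithmic above, with 1 point per library and bars for exact Poisson 95% intervals. Border macrophage-like cells have the highest mean in all 4 panels, but in HC replicate 2 microglia-like cells are above them for Ccl2 (328 against 230) and Ccl12 (1104 against 1099), and microglia-like means are low for Ccl7 (13.1) and Ccl8 (4.04).

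Natural killer (NK)-like cells, which should lack these genes, gave the background of free RNA. Their levels over the 3 libraries were at most 13.6 CPM for Ccl2, 21.7 for Ccl7, 26.5 for Ccl8 and 43.4 for Ccl12. In the droplets of cell-free RNA, Ccl12 took 281, 79.9 and 309 CPM, Ccl2 105, 34.8 and 48.3, Ccl7 91.2, 12.7 and 23.2, and Ccl8 83.5, 3.76 and 8.94 CPM. Free RNA of HC replicate 1 thus held the most of Ccl2, Ccl7 and Ccl8. The levels of Ccl7 and Ccl8 in monocyte-like and microglia-like cells were no higher than in NK-like cells of the same library by more than counting error, and are read as background.

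The share of positive cells followed the same order. After each cell was thinned to 500 UMIs, 31.4% of border macrophage-like cells held a UMI of Ccl12, 13.6% of Ccl2, 11.4% of Ccl7 and 7.66% of Ccl8. In microglia-like cells the thinned shares were 27.4% for Ccl12, 8.33% for Ccl2, 0.806% for Ccl7 and 0 for Ccl8. In NK-like cells they were 1.09%, 0.437%, 0.655% and 0.218% for Ccl12, Ccl2, Ccl7 and Ccl8. Without thinning, 54.0%, 33.4%, 25.5% and 17.5% of border macrophage-like cells were positive for Ccl12, Ccl2, Ccl7 and Ccl8, at median depths of 2982, 2844.5 and 2281 UMIs in the 3 libraries. The medians in NK-like cells were 2265.5, 2462 and 2054 UMIs.

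Within border macrophage-like cells a minority of cells held most UMIs. Among 509 cells, 74 had 10 or more Ccl12 UMIs, and they held 1919 of 2533. The 3 highest cells held 8.49% of the Ccl12 UMIs, 12.9% of those of Ccl2, 16.5% of those of Ccl7 and 28.4% of those of Ccl8. In thinned cells, Ccl12 was detected in 50.7% of the 69 Ccl2-positive cells and in 28.4% of the 440 others. Ccl2 was detected in 27.6% of the 58 Ccl7-positive cells and in 11.8% of the rest. Within the Lyve1-rich cluster Ccl12 was detected in 17 of 34 Ccl2-positive cells and in 39.5% of the others, and within the MHC class II-rich cluster in 51.4% and 24.1%. In HC replicate 2 it was detected in 1 of 4 Ccl2-positive cells and in 22.2% of the others. Cells of 1 library are not independent replicates, so these shares are given without a test.

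The class consisted of an MHC class II-rich cluster of 198, 48 and 105 cells and a Lyve1-rich cluster of 125, 10 and 23 cells. MHC class II molecules present antigen to helper T cells, and Lyve1 is a hyaluronan receptor known from perivascular and leptomeningeal macrophages. All 4 chemokine genes had a higher level in the Lyve1-rich cluster in each of the 3 libraries. For Ccl12 the levels were 2029, 1337 and 4876 CPM there and 914, 1055 and 2797 CPM in the MHC class II-rich cluster. Ccl2 was at 744, 371 and 1737 against 238, 204 and 347 CPM. In HC replicate 2 the Lyve1-rich values rested on 10 UMIs of Ccl2, 9 of Ccl7, 4 of Ccl8 and 36 of Ccl12. The Poisson interval of Ccl2 there, 178 to 683 CPM, overlapped the 138 to 292 CPM of the other cluster.

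Ccl7 reached 741, 334 and 2316 CPM in the Lyve1-rich cluster and 250, 197 and 192 in the other. Ccl8 was at 494, 149 and 178 against 181, 13.6 and 166 CPM. For Ccl8 the CSD values of the clusters lay close together, with Poisson intervals of 76.9 to 351 and 121 to 222 CPM. The Lyve1-rich cluster of HC replicate 2 held only 10 cells, fewer than the minimum of 20 set for a test.

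**Figure D2:**
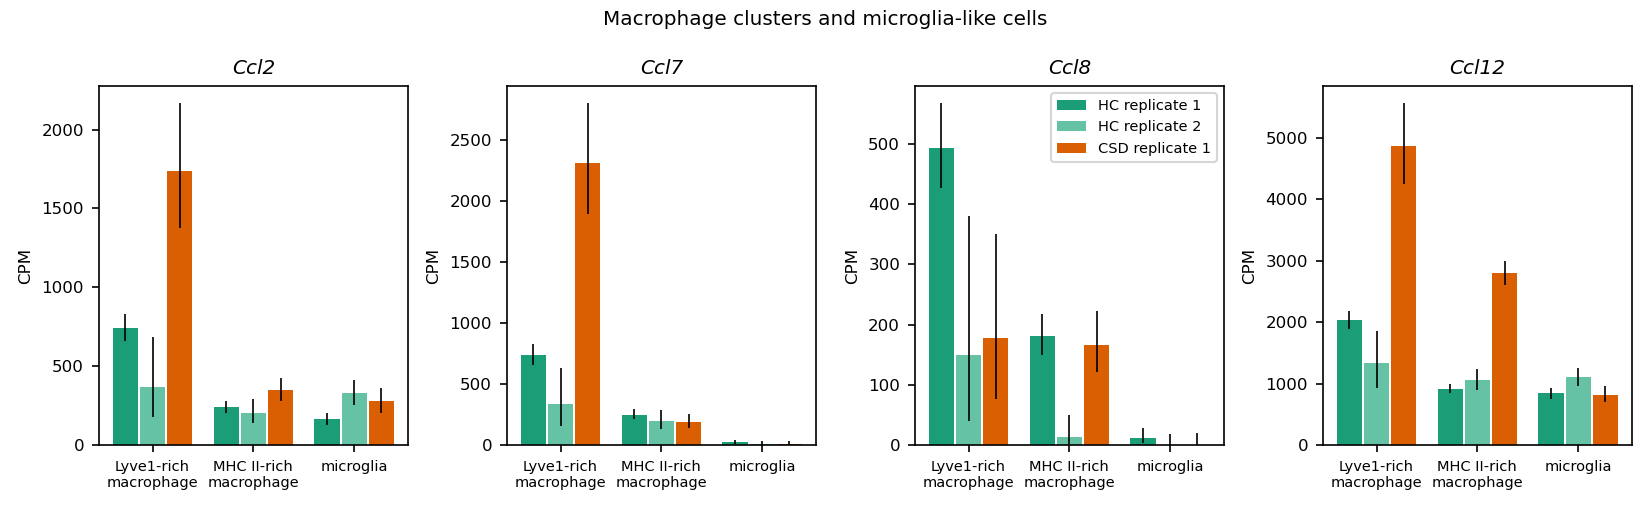
Level of each chemokine gene (CPM) in the Lyve1-rich and the MHC class II-rich cluster of border macrophage-like cells and in microglia-like cells, with 1 bar per library from 0 and lines for exact Poisson 95% intervals. Ccl12 in CSD replicate 1 is above both HC libraries in both clusters (2797 and 4876), whereas Ccl7 is above them in the Lyve1-rich cluster (2316) and not in the other (192).

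To ask whether chemokine expression differed after CSD, UMIs were summed per library and class and tested by the quasi-likelihood method of edgeR, with p adjusted over all genes tested (Benjamini-Hochberg). In border macrophage-like cells Ccl12 rose from a mean of 1226 ± 179 CPM (SD, n = 2) in HC to 3092 CPM in CSD, a 2.52-fold higher level. The log2 fold change was 1.34 with a standard error of 0.27, and the adjusted p was 0.000566 by edgeR. It was 1 of 8 genes called among 1947, or 0.411%. This call rests on a single CSD pool, and 6 of 13 alternative settings took the adjusted p above 0.05 at log2 fold changes of 1.15 to 1.36. Those were a minimum of 1000 UMIs per cell, removal of marked doublets, clustering without library correction, clustering with the 4 genes kept, subtraction of free RNA, and DESeq2, with adjusted p from 0.0926 to 0.56. With marked doublets removed, edgeR's F was 27.9 against 24.4 as reported. The call thus also depended on how far edgeR shared the spread over genes.

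None of the other 3 genes passed the test in this class. The class mixed its clusters in unlike proportions, with 125 of 323, 10 of 58 and 23 of 128 cells in the Lyve1-rich cluster. The changes given for the class are not adjusted for that mix. Ccl2 had a log2 fold change of 0.65 ± 0.31 (SE) with an adjusted p of 0.998 by edgeR, Ccl7 0.52 ± 0.32 and Ccl8 −0.26 ± 0.35, both with the same adjusted p. The CSD level was above both HC libraries for 3 of the 4 genes, as it was for 29.3% of the 1947 genes tested. For Ccl8 the HC libraries differed from each other more than either differed from CSD. The edgeR SE of 0.35 does not measure that gap, since edgeR shares the spread over genes, and DESeq2 gave an SE of 2.00. Without HC replicate 1 the log2 fold change of Ccl8 was 2.28, and without HC replicate 2 it was −0.84. Ccl2 moved to 1.26 and 0.33 and Ccl7 to 1.19 and 0.17 in the same way, and Ccl12 to 1.51 and 1.21. Counts were also simulated at the depth of this class, with the same fixed dispersion for every gene. Among 1947 genes, 15% of 2-fold and 79% of 4-fold changes were recovered, and 4 unchanged genes were called. The changed genes were picked at random over all levels, so these shares are not the detection rates of Ccl2 or Ccl7.

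The Ccl12 change was present in both clusters. In the MHC class II-rich cluster alone the log2 fold change was 1.51 (edgeR adjusted p = 0.00212) and in the Lyve1-rich cluster alone 1.59 (edgeR adjusted p = 0.00788). In the Lyve1-rich cluster Ccl2 and Ccl7 also passed the test, at 1.58 (edgeR adjusted p = 0.032) and 2.03 (edgeR adjusted p = 0.000554). The number of genes called in either cluster alone is not reported here, so these calls have no background share beside them. With 10 cells in HC replicate 2, the Lyve1-rich cluster was below the minimum of 20 cells set for a test, and its calls are to be read with that limit. They also rested on few cells. In CSD replicate 1, 3 cells held 83 of the 104 Ccl7 UMIs of that cluster, or 79.8%, and 3 cells held 66 of its 78 Ccl2 UMIs, or 84.6%. Among these, 2 cells were high in both genes and none was marked as a doublet. The Ccl12 call in that cluster had a similar limit. There the 3 highest cells held 53.4% of 219 Ccl12 UMIs in CSD replicate 1 and 97.2% of 36 in HC replicate 2. When the 3 highest cells of each library were left out, the log2 fold change in the class fell to 0.29 for Ccl2 and −0.13 for Ccl7, while that of Ccl12 was 1.36 (edgeR adjusted p = 0.00127). In the MHC class II-rich cluster Ccl7 had a log2 fold change of −0.28 and Ccl2 of 0.61, neither past the threshold (edgeR adjusted p = 0.999). The cluster-wise and top-cell values were computed after the data had been seen.

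**Figure D3:**
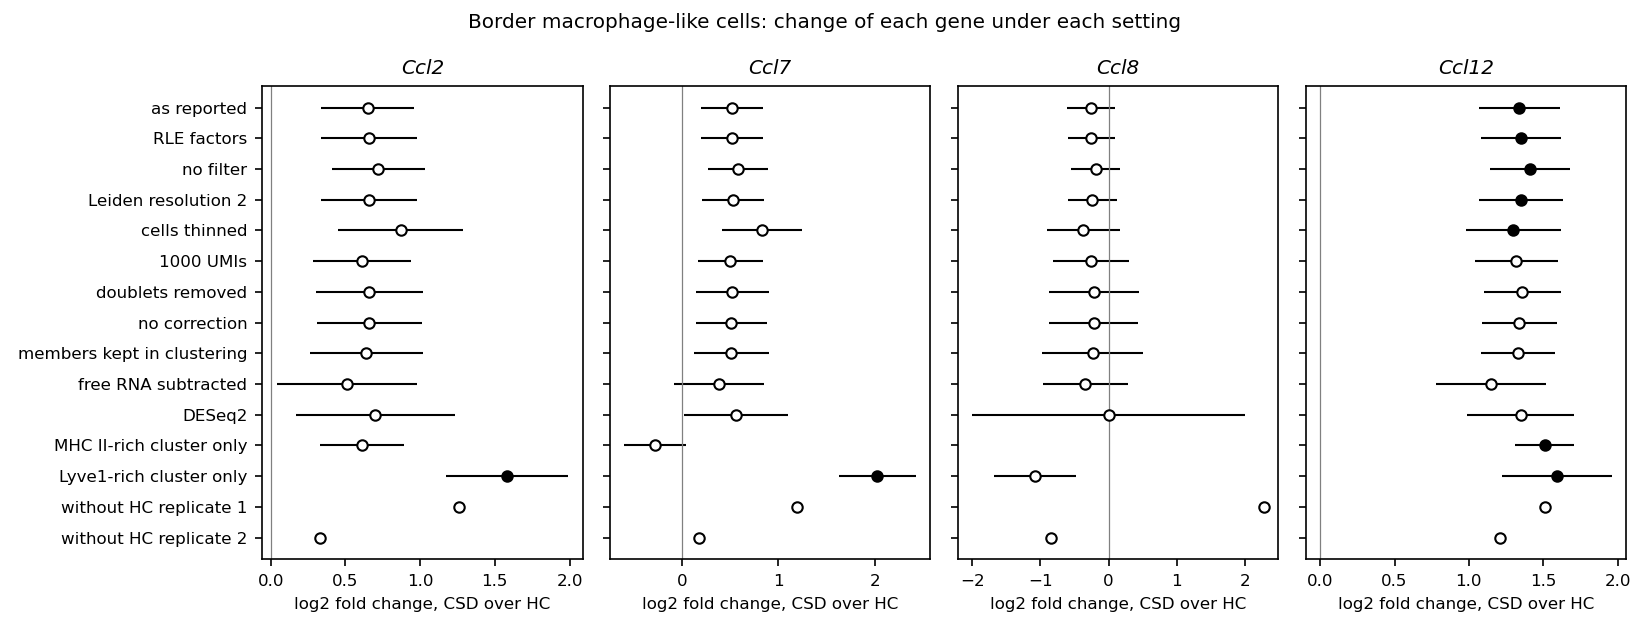
Log2 fold change of CSD over HC in border macrophage-like cells for each chemokine gene under the settings named on the y axis, with lines for 1 standard error (none without an HC library), filled marks where the adjusted p was under 0.05 and no mark where the gene was not tested. Ccl12 stays between 1.15 and 1.59, and Ccl7 ranges from −0.28 to 2.03.

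Cells with many Ccl12 UMIs were counted in each library. Cells with 10 or more Ccl12 UMIs made up 39 of 323 border macrophage-like cells (12.1%) in HC replicate 1, 8 of 58 (13.8%) in HC replicate 2 and 27 of 128 (21.1%) in CSD replicate 1. The exact binomial 95% intervals were 8.73 to 16.1%, 6.15 to 25.4% and 14.4 to 29.2%, and they overlapped. Such cells supplied 927, 794 and 2674 CPM of the class, and the remainder 425, 305 and 418 CPM. The split uses the gene's own counts and caps the remainder, so it is a description and does not locate the change. The cut at 10 UMIs marks a range and not a cell type, and 17, 3 and 3 cells lay between 8 and 11 UMIs. Thinned to equal depth, 30.7%, 22.4% and 37.5% of the cells were positive, with intervals of 25.7 to 36.0%, 12.5 to 35.3% and 29.1 to 46.5%.

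**Figure D4:**
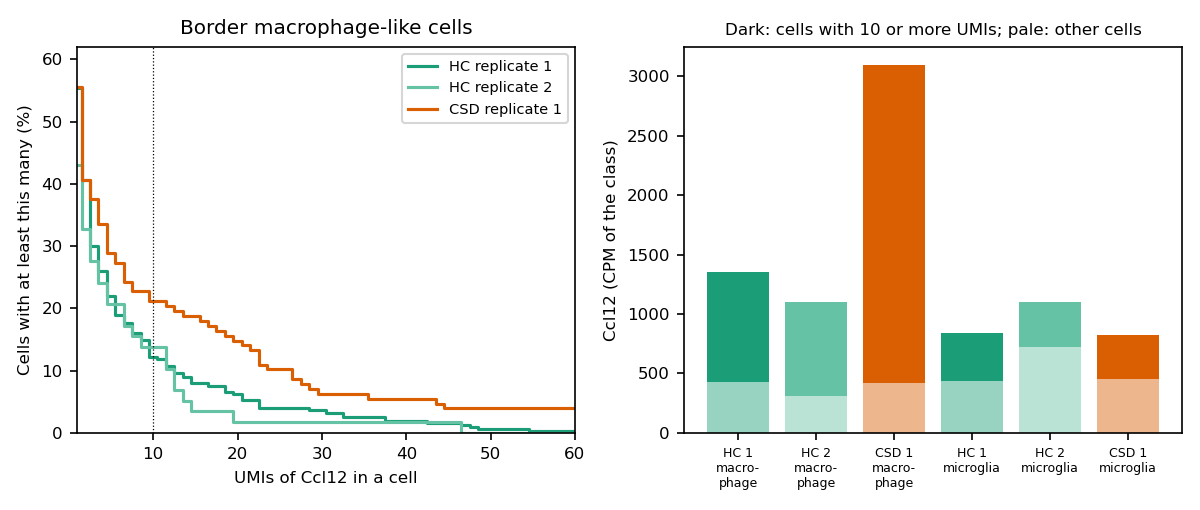
Left, percent of border macrophage-like cells (linear axis) with at least the number of Ccl12 UMIs on the x axis, per library. Right, Ccl12 level (CPM of the class) supplied by cells with 10 or more UMIs (dark) and by other cells (pale), which was 2674 and 418 in CSD border macrophage-like cells. The pale part is capped by the cut.

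Other cells in the suspension also differed between the libraries. Summed over the fixed marker lists, border macrophage-like cells of the 3 libraries carried 697, 495 and 98.1 CPM of 8 fibroblast markers, 1665, 2992 and 4862 CPM of 6 erythroid markers and 10306, 10829 and 15287 CPM of 9 neutrophil markers. The 8 border macrophage markers themselves summed to 4271, 1870 and 2763 CPM. Their part in the Ccl12 result was not tested. In microglia-like cells the same lists summed to 647, 504 and 43.4 CPM for fibroblasts, 1641, 3030 and 4768 for erythroid cells and 9716, 10357 and 13376 for neutrophils.

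In microglia-like cells Ccl12 had a log2 fold change of −0.24 ± 0.25 (SE) with an adjusted p of 0.962 by edgeR, and Ccl2 of 0.24 ± 0.46 with an adjusted p of 0.969. Ccl7 and Ccl8 were too rare for the filter of more than 15% positive cells. By edgeR's quasi-likelihood test no gene of 1787 was called in this class (0%), with 74 at an unadjusted p under 0.05, and DESeq2 called 1. The difference of the Ccl12 change between border macrophage-like and microglia-like cells was 1.57 ± 0.25 (SE) on the log2 scale, with an adjusted p of 5.62e-07 by edgeR. This comparison was added after the data had been seen. It called 6 of 2176 genes, or 0.276%, of which 4 were MHC class II genes or their chaperone (H2-Aa, H2-Ab1, H2-Eb1 and Cd74, at 1.29 to 1.67 and adjusted p by edgeR of at most 0.00265). DESeq2 gave the same difference for Ccl12 with an adjusted p of 0.999. The differences for Ccl2 (0.28 ± 0.34), Ccl7 (2.23 ± 1.20) and Ccl8 (4.29 ± 2.91) did not pass the edgeR test, each with an adjusted p of 0.996.

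In monocyte-like cells only Ccl2 passed the filter, at 43.2, 32.0 and 48.9 CPM. Its log2 fold change of 0.35 ± 0.31 (SE) did not pass (edgeR adjusted p = 0.834), in a class where 37 of 3740 genes (0.989%) were called. In cDC-like and fibroblast-like cells none of the 4 genes passed the filter, and 1 of 3077 genes (0.0325%) and 29 of 3051 (0.951%) were called. Ccl2 in cDC-like cells was at 46.1, 91.4 and 51.8 CPM, so CSD lay between the HC libraries. Without the filter, Ccl8 in monocyte-like cells (20, 0 and 1 UMIs) and Ccl7 in cDC-like cells (26, 19 and 1 UMIs) were called lower in CSD, at log2 fold changes of −3.77 and −3.69 (edgeR adjusted p = 0.0315 and 0.0285). That setting called 96 genes in monocyte-like and 27 in cDC-like cells. The number tested without the filter is not reported here, so these calls have no background share beside them. The Ccl8 level in monocyte-like cells of HC replicate 1, 22.8 CPM, was below the 26.5 CPM of its NK-like cells. Ccl7 in cDC-like cells of HC replicate 2, at 57.9 CPM, had 16 of its 19 UMIs in 1 cell.

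Against fibroblast-like cells, of which CSD replicate 1 had 22 and the HC libraries 129 and 89, the difference of the change was 3.19 ± 1.05 (SE) for Ccl12, with an adjusted p of 0.26 by edgeR. It was −0.53 ± 1.49 for Ccl2, −1.44 ± 0.81 for Ccl7 and 4.55 ± 4.23 for Ccl8, with adjusted p by edgeR between 0.883 and 0.992. None passed the threshold, where 15 of 3366 genes (0.446%) did. Fibroblast-like cells held only 6, 20, 8 and 45 UMIs of Ccl2, Ccl7, Ccl8 and Ccl12 in all 3 libraries.

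Ccr2, the receptor that Ccl2, Ccl7 and Ccl12 share, had its highest means in monocyte-like and cDC-like cells. Ccr2 was at 322 ± 7.58 CPM (SD, n = 3) in monocyte-like cells and 311 ± 38.0 in cDC-like cells, levels within each other's spread. In the MHC class II-rich cluster Ccr2 was at 235, 306 and 232 CPM and in the Lyve1-rich cluster at 32.8, 0 and 22.3 CPM. Microglia-like cells had 33.9, 4.76 and 10.8 CPM. Ccr1, which Ccl7 can engage, was at 123, 169 and 154 CPM in neutrophil-like cells.

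Receptor transcripts that Ccl7 or Ccl8 could engage beyond these were close to absent at this depth, with 13 UMIs of Ccr3 and 4 of Ccr8 in 7057 cells, and 0 of the scavenging receptor Ackr2. Of the 9 receptor and scavenger genes, 3 were tested in border macrophage-like cells and none was called. Ccr2 had a log2 fold change of 0.08 ± 0.35 (SE), Ccr1 of 0.70 ± 0.44 and Ccrl2 of −0.54 ± 0.41, each with an edgeR adjusted p of 0.998. In monocyte-like cells Ccr2 was at 314, 324 and 329 CPM, with a log2 fold change of 0.04 ± 0.19 and an adjusted p of 0.981 by edgeR.

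**Figure D5:**
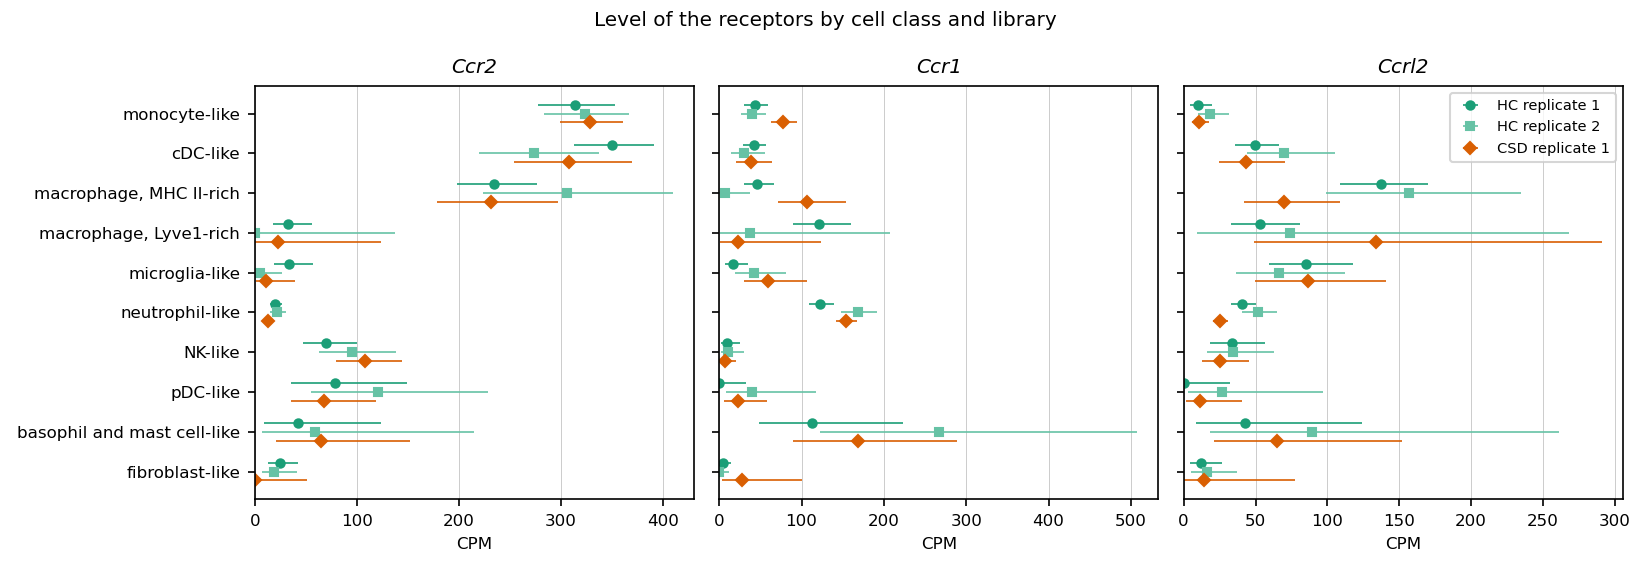
Level of the receptor genes Ccr2 and Ccr1 and of Ccrl2 (CPM) by cell class and macrophage cluster, on a linear axis, with 1 point per library and bars for exact Poisson 95% intervals. Ccr2 has its highest means in monocyte-like (322) and cDC-like cells (311).

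Other CC chemokines did not pass the test in border macrophage-like cells. Of the 16 in the list, 5 were tested and 0 were called, with a median log2 fold change of −0.15 against −0.03 over all genes. They were Ccl3 at −0.28, Ccl4 at −0.15, Ccl5 at −0.69, Ccl6 at −0.05 and Ccl9 at 0.42, and all had an edgeR adjusted p of 0.998. Of 19 listed genes of inducing signals and the NF-kB pathway, 6 were tested and 0 were called, with a median of −0.24. No gene of an NF-kB subunit was among the 6, so the activity of that pathway was not tested. Immediate early and heat shock genes, which respond to tissue dissociation, had 14 tested and 0 called, with summed levels of 9530, 12262 and 8628 CPM. MHC class II genes had 6 tested and 0 called (median 0.18), and the genes of the MHC-low macrophage type 6 tested and 0 called (median −0.49). Of the CXC and CX3C chemokines 3 were tested and 0 called, with a median of −0.24. The 4 monocyte-attracting genes had a median of 0.59 with 1 called, Ccl12, where 8 of all 1947 genes (0.411%) were called. That median lay between Ccl7 at 0.52 and Ccl2 at 0.65, neither of them called. Without the 3 highest cells of each library these were −0.13 and 0.29, so the median does not show a rise of the 4 genes together.

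Genes with the most similar profile over the 18 classes differed between the 4 chemokines. The measure was Pearson's r of log2(mean CPM + 10) among 7361 genes, given as a description, since classes share their 3 libraries. Ccl12 was most like the complement genes C1qb (0.965), C1qa (0.959) and C1qc (0.948), then Ang (0.924) and Stab1 (0.915). Ccl2 was most like Fcgr1 (0.968), Atf3 (0.937), Hpgd (0.923) and Aif1 (0.917).

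Ccl7 was most like Apoe (0.903), Ccl8 (0.900), Folr2 (0.886), Mrc1 (0.885) and Dab2 (0.864). Ccl8 was most like Cd163 (0.901), Ccl7 (0.900), Pf4 (0.885), Mrc1 (0.875) and Apoe (0.870). Mrc1, Cd163 and Folr2 are scavenger or uptake receptors known from border macrophages, and Fcgr1 and Aif1 are expressed by macrophages and microglia alike. Among the 4 genes, the profile correlation was 0.900 for Ccl7 with Ccl8 and 0.838 for Ccl2 with Ccl12, and between 0.611 and 0.710 for the other 4 pairs.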

How the data were processed

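The authors captured sorted meningeal cells with the 10x Chromium v2 3' kit and, per the submitters' processing notes, made the deposited counts with Cell Ranger 2 on mm10. The counts are whole UMIs for every barcode, without normalization. The 4 genes and all lists were chosen with earlier results of these data known. Cells passed the filters stated at the start. They were clustered without the 4 genes (3000 variable genes, 50 components, mutual-nearest-neighbour correction, Leiden resolution 1) and named from marker lists. Clusters with under 3 detected markers, or with leading genes of another type, stayed unnamed. Doublets marked by Scrublet (47, 25 and 114 cells) were kept. The automatic threshold was used in HC and the top scores in CSD replicate 1. UMIs were summed per library and class and tested with edgeR 4.0.16 (glmQLFit and glmQLFTest, TMM, two-sided, 1 residual degree of freedom) on genes in more than 15% of cells, with at least 20 cells per library except for the Lyve1-rich cluster taken alone. The lone CSD pool was assumed to vary like the HC pools. The SE given with edgeR values is derived, as the absolute log2 fold change divided by the square root of F. The difference between classes was an interaction with library as a block. Free RNA was subtracted in 1 alternative as 36.0%, 23.8% and 18.1% of each library's cell UMIs, estimated from globin. Intervals are exact Poisson or Clopper-Pearson. Named genes are the 4 chemokines, their 5 most alike genes, CC chemokines and receptors tested in border macrophage-like or fibroblast-like cells, and list genes past the threshold. Some genes that this rule names are not reported here. Ccr3, Ccr8 and Ackr2 were named after their values were seen. Positions are from GENCODE for GRCm38. The edgeR script was tested on simulated data. Alternatives are given in the closing section, with DESeq2 1.42.0 among them.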

Additional observations from a re-analysis of the deposited data

Results flagged for a closer look

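The change of Ccl12 with CSD differed between border macrophage-like and microglia-like cells with a log2 difference of 1.57 ± 0.25 (SE) over 6 sums and an adjusted p of 5.62e-07 from edgeR. The direction was up in border macrophage-like cells (1352 and 1099 CPM in HC, 3092 in CSD) and not in microglia-like cells (839 and 1104 CPM in HC, 819 in CSD). The comparison was added after the data had been seen, and the lone CSD pool cannot be told apart from its lane. The 7 MHC class II genes, 4 of which differed in the same test, had a summed level of 3772, 3216 and 1915 CPM in microglia-like cells. With free RNA subtracted the Ccl12 difference was 1.59 ± 0.35 (SE), with an adjusted p of 0.0146 by edgeR.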

How the results depend on the processing

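Ccl12 stayed higher in CSD border macrophage-like cells under all 13 alternatives, at log2 fold changes of 1.15 to 1.59. The edgeR call was kept in 7. Of these, 1 was the Lyve1-rich cluster alone, which had 10 cells in HC replicate 2 and so was below the 20-cell minimum. Another left out the 3 highest cells of each library, picked by their own Ccl12 counts, and is no test of the change. The call was lost with 1000 UMIs per cell (1.32, adjusted p = 0.0926 by edgeR), with doublets removed (1.36, 0.153), without library correction (1.34, 0.14), with the 4 genes kept in clustering (1.33, 0.305), with free RNA subtracted (1.15, 0.56) and with DESeq2 (1.35, 0.179). The difference of the Ccl12 change against microglia-like cells kept its call in 7 of 10 alternatives and lost it with 1000 UMIs (1.51, adjusted p = 0.0553 by edgeR), doublets removed (1.48, 0.987) and DESeq2 (1.57, 0.999). With doublets removed, without correction and with the 4 genes kept, the edgeR F of Ccl12 in border macrophage-like cells was 27.9, 28.2 and 28.5. It was 24.4 as reported. The unadjusted edgeR p was 0.000165, 0.000178 and 0.000474, against 8.72e-07. These calls thus depended on how far edgeR shared the spread over genes. Other causes were not tested. Alternatives by cluster, without the 3 highest cells and against microglia-like cells were chosen after seeing the data. In the Lyve1-rich cluster alone, below that minimum, Ccl2 (1.58) and Ccl7 (2.03) passed the edgeR threshold. Ccl7 turned to −0.28 in the MHC class II-rich cluster alone and to −0.13 without its 3 highest cells. With cells thinned, Ccl2 in microglia-like cells turned to −0.24 and the Ccl7 difference against fibroblast-like cells to 4.08.

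Without either HC library in turn, the log2 fold change in border macrophage-like cells ranged from 0.33 to 1.26 for Ccl2, 0.17 to 1.19 for Ccl7, −0.84 to 2.28 for Ccl8 and 1.21 to 1.51 for Ccl12. In microglia-like cells Ccl2 ranged from −0.25 to 0.76. Against microglia-like cells the difference ranged from 1.28 to 1.95 for Ccl12 and −0.40 to 1.51 for Ccl2, and from −3.02 to −1.15 for Ccl7 against fibroblast-like cells. No paired analysis was run, because the libraries were separate pools of mice and the labels do not pair them.

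Counts of genes called moved as follows, from 8 in border macrophage-like cells, 0 in microglia-like, 37 in monocyte-like, 1 in cDC-like and 29 in fibroblast-like cells, 15 for the difference against fibroblast-like and 6 for that against microglia-like cells. In border macrophage-like cells 2 were called with 1000 UMIs, 1 with DESeq2, 2 with cells thinned, 1 with doublets removed, 0 with the 4 genes kept and 0 without correction. In microglia-like cells 1 was called with DESeq2, 1 thinned, 4 with free RNA subtracted, 3 with the 4 genes kept, 7 without correction and 14 without the filter. In monocyte-like cells 0 were called with 1000 UMIs, 7 with DESeq2, 13 at resolution 2, 6 thinned, 24 with doublets removed, 5 with free RNA subtracted, 12 with the 4 genes kept and 96 without the filter. In cDC-like cells 12 were called at resolution 2, 0 thinned, 6 with free RNA subtracted, 5 with the 4 genes kept, 0 without correction and 27 without the filter. In fibroblast-like cells 0 were called with DESeq2, 12 with RLE factors, 2 thinned, 2 with doublets removed, 2 with free RNA subtracted and 0 without the filter. For the difference against fibroblast-like cells 3 were called with DESeq2, 9 with RLE factors, 1 thinned and 0 with free RNA subtracted. Against microglia-like cells 0 were called with 1000 UMIs, 0 with DESeq2, 1 thinned, 0 with doublets removed and 11 with free RNA subtracted.

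With free RNA subtracted, border macrophage-like cells held 66.5% of Ccl2 UMIs, 93.4% of Ccl7, 99.6% of Ccl8 and 77.7% of Ccl12, and microglia-like cells 18.3%, 0.245%, 0% and 21.7%. Mean levels then moved to 0 CPM for Ccl12 in monocyte-like and in cDC-like cells, 4.29 for Ccl12 and 1.74 for Ccl2 in fibroblast-like cells, 2.57 for Ccl7 in microglia-like cells, and 23.1 for Ccl2 and 1.94 for Ccl7 in monocyte-like cells. In HC replicate 1 the globin-based share took off more Ccl12 than NK-like cells held. The shares of border macrophage-like cells may thus be too high, and the levels of other classes too low. In monocyte-like cells Ccl2 was at 53.4 CPM with 1000 UMIs, 52.0 at resolution 2 and 55.1 with doublets removed, and Ccl7 at 18.8 at resolution 2. Without thinning, 33.4%, 25.5%, 17.5% and 54.0% of border macrophage-like cells and 18.3%, 2.96%, 1.34% and 51.3% of microglia-like cells held a UMI of Ccl2, Ccl7, Ccl8 and Ccl12.

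The setting with 1000 UMIs was not run for fibroblast-like cells, of which CSD then had 19. In 5 cases the difference between classes had no value, because the gene was at 0 in the other class.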
